A study of Homo sapiens with 6 samples.

Results

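G3BP2 and 8 further genes of stress granule and ribosome-associated RNA-binding proteins are described here: G3BP1, CAPRIN1, USP10, TIA1, TIAL1, ATXN2, HABP4 and SERBP1. They are 9 of the 29476 genes in the deposited table, taken by gene symbol, each with 1 row. G3BP2 and HABP4 were taken because their levels were higher after NORAD knockdown in these same libraries, so their change is described without a test. The other 7 are their paralogues, binding partners and fellow granule proteins. RNA was sequenced from A549 cells, a human lung adenocarcinoma line, in 2 groups of 3 libraries numbered 4, 5 and 6. The si-NC group received a negative control siRNA and the si-NORAD group one that targets NORAD, a long noncoding RNA, both delivered with a lipid reagent. All libraries come from this single cell line. The labels do not give the siRNA sequences or the harvest time. They also do not name separate cultures, so every p below rests on a spread between libraries that may be technical.

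Stress granules are cytoplasmic assemblies of untranslated mRNA and protein that form when translation initiation is blocked, typically after stress kinases phosphorylate the initiation factor eIF2. G3BP1 and its paralogue G3BP2 are RNA-binding proteins that nucleate them; CAPRIN1 binds G3BP and favours assembly, whereas the deubiquitinase USP10 binds the same surface and opposes it. TIA1 and TIAL1 are paralogous splicing and translation regulators with a prion-like tail, ATXN2 is a polyglutamine protein that binds poly(A)-binding protein, and SERBP1 and its paralogue HABP4 are arginine-glycine-rich proteins found on ribosomes that are not translating. NORAD, the siRNA target, is a cytoplasmic RNA that binds RNA-binding proteins of the Pumilio family, which recognise a short motif in the 3′ UTRs (untranslated regions after the coding sequence) of mRNAs.

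The Pumilio motif is shown first because it is the sequence that links a target mRNA to the proteins NORAD binds. The letters searched were TGTANATA on the sense strand of the longest annotated 3′ UTR (GENCODE 29, GRCh38), and the NORAD transcript of 5339 bases itself holds 15 matches. Of the 9 genes 4 hold at least 1 match, and 3 hold 2 or more. Among 12935 tested genes with an annotated 3′ UTR, 29.6% hold at least 1 and 10.6% at least 2. The 8 matches follow with 6 bases on either side, 5′ to 3′ in the sense of the mRNA, and the capitals mark the motif.
HABP4 site 1, chr9:96490291-96490310, plus strand: aaaatgTGTATATAgagata
HABP4 site 2, chr9:96490875-96490894, plus strand: aaaagtTGTAAATAactagt
ATXN2, chr12:111469860-111469879, minus strand: taatgaTGTATATAatggca
TIAL1 site 1, chr10:119574864-119574883, minus strand: acatatTGTAAATAttcaat
TIAL1 site 2, chr10:119574555-119574574, minus strand: ttggtaTGTAAATAccttga
SERBP1 site 1, chr1:67410412-67410431, minus strand: cagggtTGTAAATAtatttg
SERBP1 site 2, chr1:67409962-67409981, minus strand: caaataTGTAAATAagtttt
SERBP1 site 3, chr1:67408401-67408420, minus strand: ttagtaTGTATATActgttt

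HABP4 holds its 2 matches in a 3′ UTR of 1298 bases, and 6.16% of genes whose 3′ UTR length lies within 1.2-fold of it hold as many. SERBP1 holds 3 in 5397 bases, as many as 14.0% of genes of like length, and TIAL1 2 in 3863 bases, as many as 21.5%. ATXN2 holds 1 in 1712 bases, where 29.2% of genes of like length hold 1 or more. G3BP2 has no match in 2648 bases, although 42.6% of genes of that length have one, and G3BP1 has none in 8694 bases, where 79.2% do. CAPRIN1 (1789 bases), USP10 (499 bases) and TIA1 (3275 bases) also have none in these windows. The pair with the higher values after knockdown is therefore split, HABP4 with 2 matches and G3BP2 without one. A match is only a run of letters, and Pumilio binding was not measured here.

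Library totals ran from 19332334 to 32760606 counts. All 9 genes passed the low-count filter, with at least 491 counts in every library. NORAD was at 549.5, 461 and 423 CPM (read counts scaled to library size, with trimmed-mean scaling) in si-NC 4, 5 and 6, against 359, 372 and 399.6 CPM in si-NORAD 4, 5 and 6. Its log2 fold change was -0.34 (SE 0.11), with adjusted p = 0.196 in edgeR's quasi-likelihood test, so the targeted RNA was lower without passing. NORAD passed in edgeR without the low-count filter (-0.35, adjusted p = 0.0109), where 6.56% of all genes were called. It also passed without si-NC 4 (-0.23, edgeR adjusted p = 0.00757), where 39.3% were called. With si-NC 4 as the lone control library its log2 fold change was -0.55. In the remaining alternatives NORAD did not pass, with adjusted p up to 0.516. Of 10 A549 and simple epithelium markers, 9 averaged over 1 FPKM (fragment counts scaled to library size and gene length), with summed levels of 3531 to 4538 FPKM in si-NC and 3825 to 3843 FPKM in si-NORAD. Because the labels mention retina in their extraction text, 10 retinal markers were checked. GNAT1, RPE65 and RLBP1 were not among the genes of the deposited table, and none of the other 7 averaged over 1 FPKM. The summed retinal level was 0.274 to 0.442 FPKM in si-NC and 0.289 to 0.388 FPKM in si-NORAD. Libraries of si-NC differed from each other more than those of si-NORAD: over the genes tested, the median range across 3 libraries was 0.34 (log2) in si-NC and 0.13 in si-NORAD. Between 2 libraries, the chi-square of counts per degree of freedom is larger where they differ more. It was 25.2 for si-NC 4 and 5, 50.4 for si-NC 4 and 6, and 11.6 for si-NC 5 and 6. Within si-NORAD it was 2.36 to 2.52, so si-NC 5 and si-NC 6 also differed.

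The G3BP pair comes first, since these proteins nucleate the granule. G3BP2 (ENSG00000138757, chromosome 4, 75642782 to 75724525, minus strand) was at 130.3, 117 and 121 CPM in si-NC 4, 5 and 6, against 186, 182 and 186 CPM in si-NORAD 4, 5 and 6. Every si-NORAD library lay above every si-NC library, a split shown by 12.7% of all genes tested in this direction. The si-NORAD libraries differed from each other by 0.03 (log2), beside a median of 0.13 over the genes tested. The fitted log2 fold change was 0.59 (SE 0.08), which is 1.51-fold, from group means of 123 ± 6.89 and 185 ± 2.43 CPM (SD, n = 3 each). This is the value for which G3BP2 was chosen. Bulk libraries cannot tell a different share of expressing cells from a different amount of RNA per cell.

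G3BP1 (ENSG00000145907, chromosome 5, 151771045 to 151812785, plus strand) was at 399, 400.0 and 376 CPM in si-NC and 383, 388 and 379 CPM in si-NORAD, given as 4, 5 and 6. The groups overlapped, and the si-NORAD values all lay inside the si-NC range. The log2 fold change was -0.03 (SE 0.07), with a 95% interval from -0.20 to 0.14 and adjusted p = 0.815 by edgeR's quasi-likelihood test. The upper end of its interval is 1.10-fold. On log2 FPKM, which carries no trimmed-mean scaling, the difference for G3BP1 was 0.03, on the other side of 0.

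The 9 genes are set side by side, library by library, in the plot of CPM relative to the control mean.

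**Figure D1:**
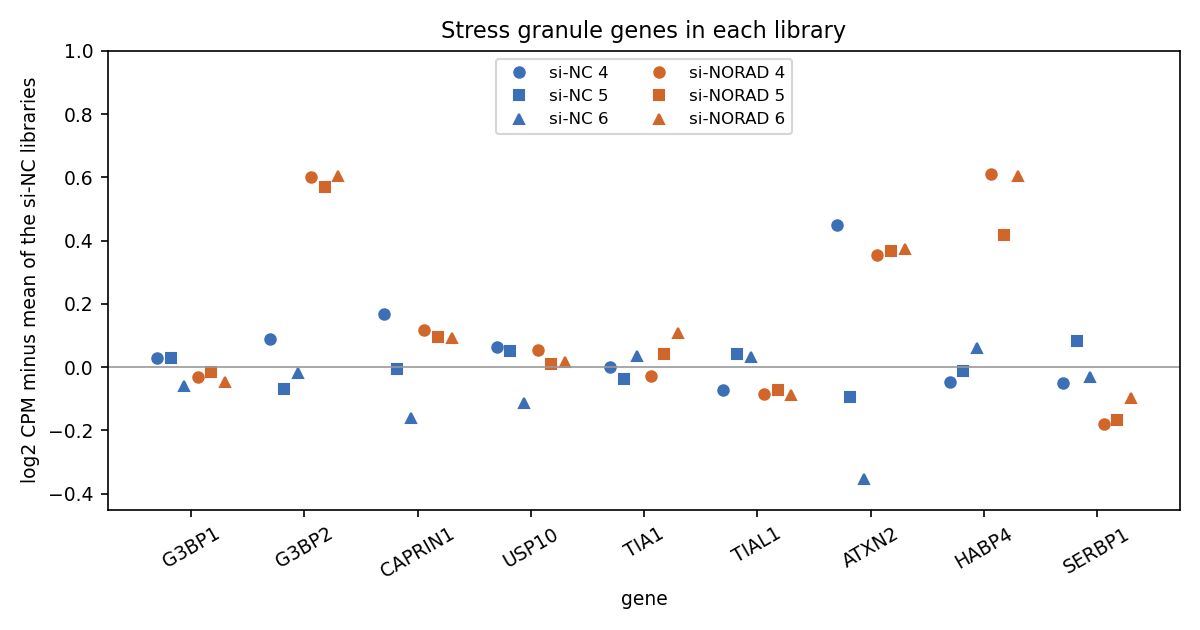
Each point is 1 library, drawn as log2 CPM minus the mean log2 CPM of the 3 si-NC libraries (blue, si-NC; orange, si-NORAD; circle, square and triangle, libraries 4, 5 and 6). G3BP2 and HABP4 have all si-NORAD points above all si-NC points, SERBP1 has them below, and for ATXN2 the si-NC points spread over 0.80 log2 units with si-NC 4 above the si-NORAD points.

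Because FPKM divides by gene length, the share of the G3BP message that is G3BP2 can be followed within each library. The lengths used were 12406 bases for G3BP1 and 7183 bases for G3BP2. The level of the ratio and the share depend on these lengths, while the fold difference in the ratio between groups does not. The ratio of G3BP2 to G3BP1 FPKM was 0.563, 0.505 and 0.556 in si-NC 4, 5 and 6 and was 0.839, 0.810 and 0.849 in si-NORAD 4, 5 and 6. The groups did not overlap, with means of 0.541 ± 0.0319 and 0.833 ± 0.0200 (SD, n = 3 each). G3BP1 remained the more abundant of the pair per length in all 6 libraries. G3BP2 made up 35.1% of their summed FPKM in si-NC and 45.4% in si-NORAD, and the sum was 47.6 ± 3.25 FPKM in si-NC and 57.8 ± 0.0961 FPKM in si-NORAD. These ratios contain the value used to choose G3BP2 and carry no test.

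HABP4 and SERBP1, the ribosome-associated pair, differed in direction by CPM, HABP4 with higher and SERBP1 with lower values in si-NORAD. HABP4 (ENSG00000130956, chromosome 9, 96450201 to 96491336, plus strand) was at 23.0, 23.6 and 24.8 CPM in si-NC 4, 5 and 6, against 36.3, 31.8 and 36.2 CPM in si-NORAD 4, 5 and 6. All si-NORAD libraries were above all si-NC libraries, as for 12.7% of all genes tested, with si-NORAD 5 the lowest of the former. The log2 fold change was 0.55 (SE 0.09), 1.46-fold, and it too is the value by which the gene was chosen. HABP4 shares 1096 of its 4056 annotated exon bases, 27.0%, with exons of CDC14B, a phosphatase gene on the opposite strand. The library kit keeps strand, but the labels do not say whether reads were counted by strand. CDC14B, named after its values were seen, was at 42.1, 33.7 and 28.9 CPM in si-NC 4, 5 and 6, against 37.7, 40.4 and 40.5 CPM in si-NORAD 4, 5 and 6. Its groups overlapped (log2 fold change 0.18, adjusted p = 0.418 by edgeR). For CDC14B the value was 0.33 without si-NC 4 and passed (edgeR adjusted p = 0.00637), where 39.3% of all genes were called. The CDC14B value was 0.059 without si-NC 6 and -0.096 with si-NC 4 as the lone control library. Its part in the HABP4 counts was not tested.

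SERBP1 (ENSG00000142864, chromosome 1, 67407810 to 67430415, minus strand) was at 491, 537 and 497 CPM in si-NC 4, 5 and 6, against 448, 453 and 475 CPM in si-NORAD 4, 5 and 6. By CPM the 3 si-NORAD libraries all lay below the 3 si-NC libraries, a split shown by 12.7% of all genes tested in this direction. In FPKM the groups overlapped, since si-NORAD 6 (63.2) lay above si-NC 6 (62.1). The log2 fold change was -0.15 (SE 0.08, interval -0.33 to 0.03), which did not pass in edgeR (adjusted p = 0.295). It passed without si-NC 4 (-0.18, edgeR adjusted p = 0.0200), where 39.3% of all genes tested were called. Over the 19 alternatives its adjusted p ran from 0.0200 to 0.596. The 3 SERBP1 pseudogenes in the table, SERBP1P1, SERBP1P3 and SERBP1P5, held at most 4 counts in any library.

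The HABP4 to SERBP1 ratio of FPKM was 0.0888, 0.0831 and 0.0944 in si-NC 4, 5 and 6 and was 0.153, 0.133 and 0.144 in si-NORAD 4, 5 and 6. The groups did not overlap. The summed FPKM of the pair, most of it from SERBP1, was 70.5 ± 2.40 in si-NC and 69.7 ± 2.22 in si-NORAD (SD, n = 3 each), a difference smaller than either spread. FPKM carries no trimmed-mean scaling, so this sum depends on that choice. SERBP1 differed by -0.09 on log2 of FPKM plus 0.1 and by -0.15 in edgeR.

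**Figure D2:**
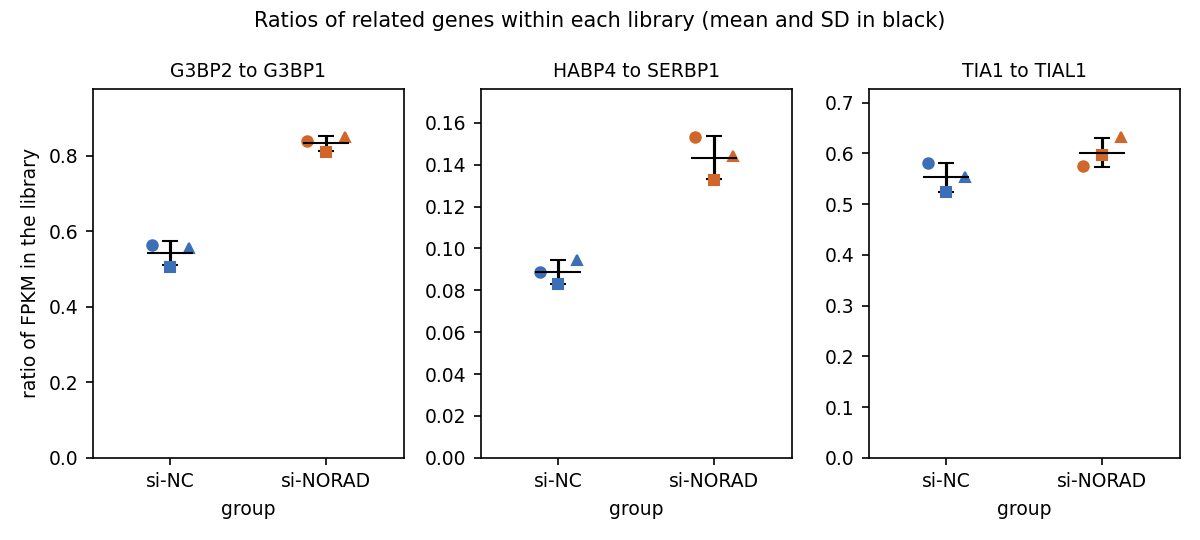
Ratio of FPKM within each library for 3 pairs of paralogues (points, libraries; black, group mean and SD, n = 3 each; each axis starts at 0). G3BP2 to G3BP1 and HABP4 to SERBP1 are higher in all si-NORAD libraries, both pairs holding a gene chosen for that rise, while the ratios of TIA1 to TIAL1 overlap.

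The partners that bind G3BP, CAPRIN1 and USP10, showed no change that passed. CAPRIN1 (ENSG00000135387, chromosome 11, 34051683 to 34101156, plus strand), the partner that favours granules, was at 442, 392 and 352 CPM in si-NC 4, 5 and 6, against 426, 419.9 and 419.5 CPM in si-NORAD 4, 5 and 6. The si-NC values spanned the si-NORAD values on both sides. Its fitted log2 fold change was 0.09 (SE 0.10, interval -0.12 to 0.31, edgeR adjusted p = 0.558). Its direction depended on the control libraries: without si-NC 4 it was 0.18 and passed (edgeR adjusted p = 0.0212, with 39.3% of all genes called), and with si-NC 4 as the lone control library it was -0.07. Over the 19 alternatives the adjusted p of CAPRIN1 ran from 0.0212 to 0.959.

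USP10 (ENSG00000103194, chromosome 16, 84699978 to 84779922, plus strand), the deubiquitinase that opposes assembly, was at 175, 173 and 155 CPM in si-NC 4, 5 and 6, against 174, 169 and 169 CPM in si-NORAD 4, 5 and 6. The si-NORAD values lay inside the si-NC range. USP10 had a log2 fold change of 0.03 (SE 0.08, interval -0.15 to 0.20, edgeR adjusted p = 0.864), and it was -0.03 without si-NC 6.

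TIA1 and TIAL1 also did not pass. TIA1 (ENSG00000116001, chromosome 2, 70209444 to 70248660, minus strand) was at 60.0, 58.5 and 61.5 CPM in si-NC and 58.9, 61.7 and 64.7 CPM in si-NORAD, given as 4, 5 and 6. TIAL1 (ENSG00000151923, chromosome 10, 119571802 to 119597029, minus strand) was at 115, 124 and 124 CPM in si-NC and 114, 115 and 114 CPM in si-NORAD. Both genes had overlapping groups. The log2 fold change was 0.04 for TIA1 (interval -0.13 to 0.21, edgeR adjusted p = 0.762) and -0.08 for TIAL1 (interval -0.25 to 0.08, edgeR adjusted p = 0.504). With the trend over gene length removed TIA1 turned to -0.04. The ratio of TIA1 to TIAL1 FPKM was 0.581, 0.523 and 0.553 in si-NC 4, 5 and 6 and was 0.575, 0.597 and 0.632 in si-NORAD 4, 5 and 6. A two-sided exact permutation test over the 6 libraries gave p = 0.2 (n = 3 each), where the smallest p this design allows is 0.1.

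ATXN2, the poly(A)-binding-protein partner, was the member whose value depended most on single control libraries. ATXN2 (ENSG00000204842, chromosome 12, 111443485 to 111599676, minus strand) was at 76.6, 52.5 and 43.9 CPM in si-NC 4, 5 and 6, a range of 0.80 (log2). In si-NORAD 4, 5 and 6 it was at 71.7, 72.4 and 72.8 CPM, a range of 0.02. The si-NORAD libraries thus lay above si-NC 5 and si-NC 6 and below si-NC 4. For ATXN2 the fitted log2 fold change was 0.33 (SE 0.17, interval -0.06 to 0.71, edgeR adjusted p = 0.289). Without si-NC 4 it was 0.58 and passed (edgeR adjusted p = 0.000103, with 39.3% of all genes called). Without the low-count filter it was 0.32 and passed (edgeR adjusted p = 0.0368, with 6.56% of all genes called). With si-NC 4 as the lone control library ATXN2 was at -0.08. Over the 19 alternatives its adjusted p ran from 0.000103 to 0.597.

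Other members share few exon bases with a neighbour in the table. TIA1 shares 211 of 6607 with C2orf42 on the same strand, G3BP1 130 of 12406 with ATOX1 on the opposite strand, and ATXN2 69 of 16504 with SH2B3 and 56 with ATXN2-AS on the opposite strand.

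Of the 7 genes not chosen for their change, 0 passed in edgeR, against 0.00645% of all 15515 genes tested (1 gene, TPM4). At an unadjusted p under 0.05 the count was 0 of 7, against 21.6% of all genes, and 0 of the 7 were called by DESeq2, against 2.5% of all genes, and by limma-voom, against 0.00645%. The groups did not overlap for 1 of the 7, SERBP1, against 12.7% of all genes lower and 12.7% higher in si-NORAD. The plot of fitted changes shows the 9 genes against all genes tested, whose median log2 fold change was 0.01 and whose 5th and 95th percentiles were -0.44 and 0.51.

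**Figure D3:**
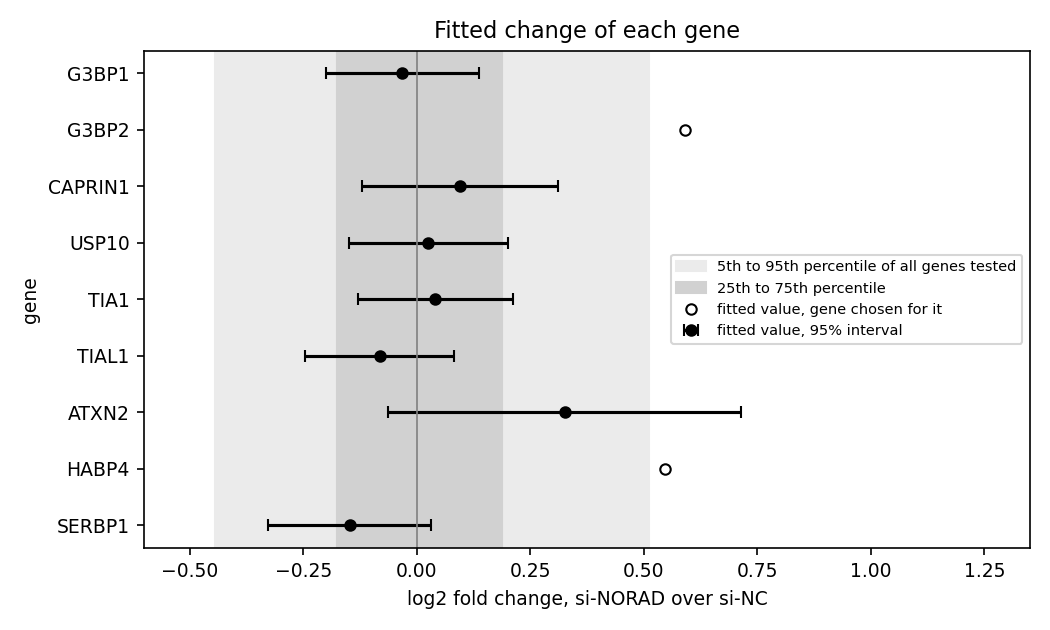
Fitted log2 fold change of si-NORAD over si-NC (n = 3 libraries each), over bands of all genes tested. G3BP2 (0.59) and HABP4 (0.55), chosen for this value, are open points without an interval, and the 7 other genes are filled points whose 95% intervals (bars) include 0.

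Control library 4 separated the members further. Measured against si-NC 4 alone, the mean si-NORAD log2 CPM was higher by 0.50 for G3BP2 and by 0.59 for HABP4. Set against si-NC 5 and si-NC 6, averaged, these differences were 0.64 and 0.52. Both genes thus lay higher against either set of control libraries, all of which had been used to choose them. ATXN2 gave -0.08 against si-NC 4 and 0.59 against si-NC 5 and si-NC 6, CAPRIN1 gave -0.07 and 0.18, and USP10 gave -0.04 and 0.06. TIAL1 gave -0.01 and -0.12, G3BP1 -0.06 and -0.02, SERBP1 -0.10 and -0.17, and TIA1 0.04 and 0.04. ATXN2 and CAPRIN1 both had si-NC 4 highest and si-NC 6 lowest, with all si-NORAD libraries between si-NC 4 and si-NC 5.

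**Figure D4:**
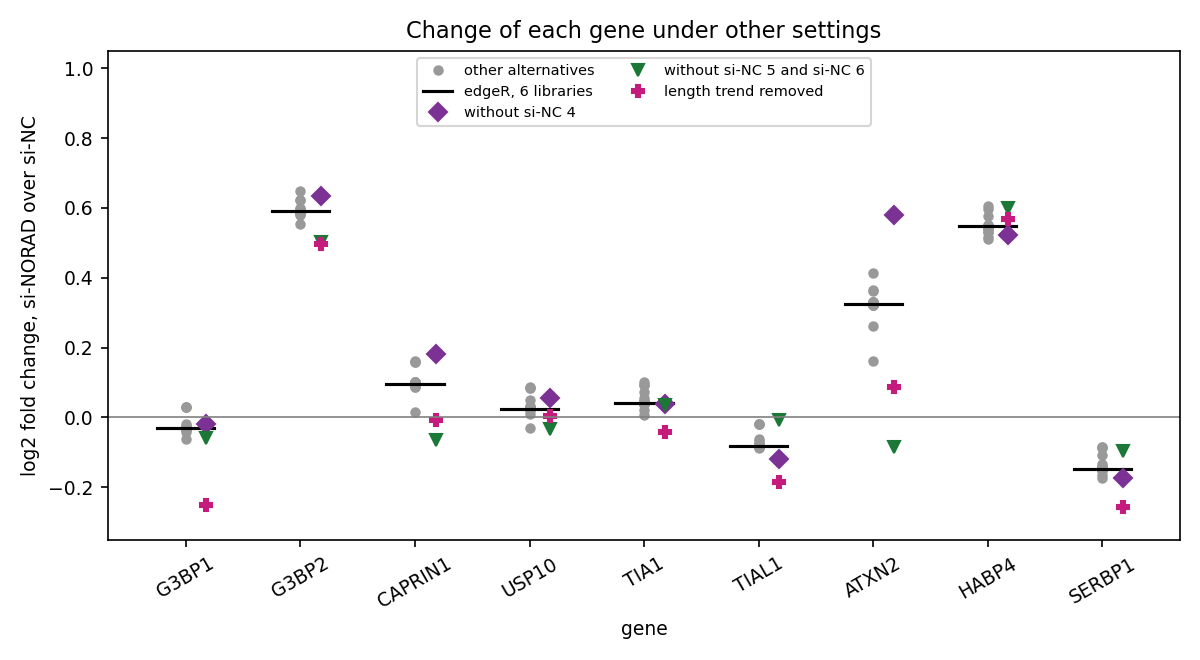
Log2 fold change of each gene under the 19 alternative settings (points) beside the edgeR value from all 6 libraries (black line). G3BP2 (0.50 to 0.65) and HABP4 (0.51 to 0.61) were chosen for their rise in these same libraries. ATXN2 runs from -0.08 with si-NC 4 as the lone control library to 0.58 without si-NC 4.

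Levels of different genes are compared per length, in FPKM. The length behind FPKM equals all annotated exon bases for G3BP1 (12406), TIA1 (6607), ATXN2 (16504) and HABP4 (4056). The order therefore depends on the annotation, and lengths of the transcripts expressed were not measured. By CPM, which is not divided by length, G3BP1 lay above USP10 (means of 392 and 168 in si-NC). ATXN2 likewise lay above HABP4 by CPM (57.7 and 23.8 in si-NC). SERBP1 was the most abundant at 62.9 FPKM on average over the 6 libraries, followed by CAPRIN1 at 53.2, USP10 at 33.3, G3BP1 at 31.2, G3BP2 at 21.5, TIAL1 at 16.0, TIA1 at 9.21, HABP4 at 7.24 and ATXN2 at 3.96. Neighbours in this order whose ranges over the libraries overlapped were USP10 with G3BP1, G3BP2 with TIAL1, and TIA1 with HABP4. The latter 2 overlaps arise in particular groups. G3BP2 was at 18.5, 15.6 and 16.1 FPKM in si-NC 4, 5 and 6, beside TIAL1 at 15.9, 16.2 and 16.1, whereas in si-NORAD it was at 26.4, 25.9 and 26.5 against 15.8, 16.0 and 15.8. HABP4 was at 5.78, 5.57 and 5.85 FPKM in si-NC, below TIA1 at 9.26, 8.47 and 8.91. In si-NORAD 4, 5 and 6 HABP4 was at 9.12, 7.99 and 9.11 FPKM and TIA1 at 9.08, 9.53 and 9.99, so that their ranges met.

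**Figure D5:**
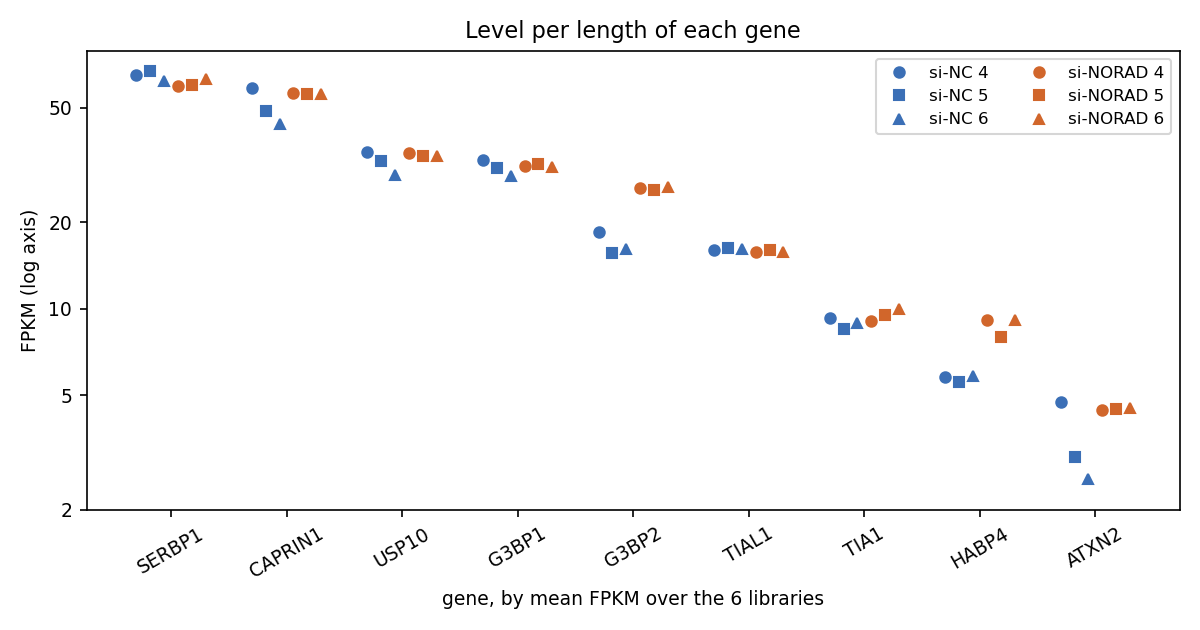
FPKM of each gene in each library on a log axis, ordered by the mean over the 6 libraries (blue, si-NC; orange, si-NORAD). G3BP2 sits level with TIAL1 in si-NC and between TIAL1 and G3BP1 in si-NORAD, and HABP4 reaches the level of TIA1 in si-NORAD.

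The genes whose library pattern was most like that of G3BP2 were sought among 10927 genes of at least 5 CPM, by the root mean square difference of centred log2 CPM over the 6 libraries. The nearest was NOLC1, a nucleolar phosphoprotein gene, at a difference of 0.0506 (log2), where the median gene was at 0.317. NOLC1 was at 301, 297 and 279.6 CPM in si-NC 4, 5 and 6, against 430.4, 429.7 and 427 CPM in si-NORAD 4, 5 and 6. The next were CYB5RL (0.0551), BICD2, a dynein adaptor (0.0561), AC145098.2 (0.0582) and ZNF267, a zinc finger gene (0.0604). For HABP4 the nearest were GLIPR1 (0.0791), MESD, a chaperone of lipoprotein receptors (0.0864), B4GALT1, a galactosyltransferase (0.0870), G3BP2 (0.0895) and NOLC1 (0.0904), with the median gene at 0.301. G3BP2 was thus among the 5 genes nearest to HABP4, whereas HABP4 was not among the 5 nearest to G3BP2. Both had been chosen for higher values in the same libraries, which this measure uses again, so their likeness carries no support.

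Around these genes, 125 further genes of the granule network were grouped by role, and 124 were tested. In edgeR 0 of the 124 passed, as did 0 in DESeq2, where 2.5% of all genes were called, and 0 in limma-voom, where 0.00645% were. In all, 24 had an unadjusted p under 0.05 in edgeR, 19.4% against 21.6% of all genes. Groups did not overlap for 20 higher and 10 lower, 16.1% and 8.06% against 12.7% and 12.7% of all genes. The median log2 fold change was 0.03 beside 0.01 over all genes. Without si-NC 4 the count was 73 of the 124 (42 higher and 31 lower), where 39.3% of all genes were called. Without the low-count filter it was 17 (13 higher and 4 lower), where 6.56% of all genes were called, and with si-NC 4 as the lone control library 6, where 3.05% of all genes were called.

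Among G3BP partners and nucleators, 10 of 11 genes lay higher in si-NORAD and 1 lower (50.9% and 49.1% of all genes tested), and the median was 0.25. Abundant members were FXR1, a relative of the fragile X protein (0.12, all following values being log2 fold changes), and PRRC2A (0.26). PRRC2A was at 338, 273 and 234 CPM in si-NC 4, 5 and 6, against 337, 338 and 339 CPM in si-NORAD 4, 5 and 6. Its si-NC 4 value lay among the si-NORAD values. With si-NC 4 as the lone control library PRRC2A gave 0.00072 and FXR1 0.15. Of 30 RNA-binding proteins of stress granules 18 lay higher and 12 lower (median 0.03). The leading members gave 0.01 for PABPC1, the main cytoplasmic poly(A)-binding protein, -0.13 for HNRNPA1 and -0.02 for HNRNPA2B1.

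Of 17 genes of the eIF2 kinases, phosphatase and eIF2 subunits, which set the signal upstream of granules, 5 lay higher and 12 lower (median -0.11). PPP1CC, a catalytic phosphatase subunit, gave -0.11, and the eIF2 subunits EIF2S2 and EIF2S3 gave -0.28 and 0.01. Of 15 initiation factors held in granules 7 lay higher and 8 lower (median -0.01, from -0.29 to 0.57). The scaffolds EIF4G2 and EIF4G1 were at 0.03 and 0.05 and EIF4B at 0.02. An unadjusted p under 0.05 in edgeR was found for 6 of the 15, 40% against 21.6% of all genes, and 0 passed. Over the 7 lists this share ran from 6.25% (granule clearance) to this 40%. Of 16 genes of granule clearance 6 lay higher and 10 lower (median -0.04). Its leading members were the chaperone HSPA8 (-0.14), the autophagy receptor SQSTM1 (-0.09) and the segregase VCP (-0.10).

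P-bodies, the neighbouring granules of mRNA decay, had 16 of 20 genes higher and 4 lower (50.9% and 49.1% of all genes tested). Their median was 0.16. LSM14A, a translational repressor, gave 0.10, CNOT1, the scaffold of the deadenylase complex, 0.43, and LSM4, a subunit of the LSM ring that acts in decapping, -0.38. CNOT1 was at 285, 183 and 139 CPM in si-NC 4, 5 and 6, against 274, 258 and 284 CPM in si-NORAD 4, 5 and 6. As for ATXN2, si-NC 4 was above the si-NORAD libraries and si-NC 5 and si-NC 6 were below them. The difference for CNOT1 was 0.76 without si-NC 4 and 0.22 without si-NC 6, and with si-NC 4 as the lone control library it was -0.07. For LSM4 these values were -0.53, -0.25 and -0.030. Of the last list, modifiers and ribosome partners of the members, 10 of 15 tested genes lay higher and 5 lower (median 0.04). The elongation factor EEF2, found with SERBP1 on idle ribosomes, gave 0.01, the ribosomal scaffold RACK1 -0.30 and the arginine methyltransferase PRMT1 -0.26. None of the genes named from these lists passed in the edgeR fit of all 6 libraries with the low-count filter, where adjusted p ran from 0.198 for EIF2S2 to 0.953 for EEF2. Without that filter CNOT1, LSM4 and RACK1 passed (edgeR adjusted p = 0.00113, 0.00415 and 0.0260), where 6.56% of all genes were called. Without si-NC 4, CNOT1, PRRC2A, LSM4, RACK1, PRMT1, EIF2S2, HNRNPA1, HSPA8, PPP1CC and VCP passed in edgeR, the first pair with higher values and the others with lower. In that fit 39.3% of all genes were called. FXR1 gave 0.15 with si-NC 4 as the lone control library.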

How the data were processed

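The table deposited by the authors gives raw read counts per gene and FPKM values for 29476 genes. The submitters' processing notes name GRCh38, HISAT2, HTSeq 0.6.1 and FastQC. Per the labels' protocols, ribosomal RNA was depleted and a directional kit was used. In 100% of values, dividing counts by FPKM returned the same gene length within 0.1%. Columns matched sample titles (0 of other samples), and the treatment label set the groups.

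Counts were fitted with edgeR 4.0.16 in R 4.3.3 (filterByExpr, 15515 genes, TMM, robust quasi-likelihood F test, two-sided, no covariate). Calls needed an adjusted p under 0.05 (Benjamini-Hochberg, over all genes tested). Exact permutation was used for 1 ratio. Members, lists and alternatives were chosen with earlier results of these data known. Named are the 9 members, NORAD, up to 3 genes of highest mean CPM and every called gene in each of 7 lists, and the 5 genes most like G3BP2 and HABP4. A gene that this rule takes from the lists is not reported here. CDC14B and TPM4 were named after their values were seen. 3′ UTRs are the longest of GENCODE 29 basic coding transcripts, at least 20 bases. Alternatives used DESeq2 1.42.0, limma 3.58.1, other scalings and filters, log2 of FPKM plus 1 or 0.1, the replicate block, a loess fit over gene length, protein-coding genes alone, and libraries left out. Python 3.11.15 was used for sequences and figures.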

Additional observations from a re-analysis of the deposited data

How the results depend on the processing

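G3BP2 and HABP4 had a positive log2 fold change in all 19 alternatives, from 0.50 to 0.65 and from 0.51 to 0.61. Every alternative reuses the libraries in which both genes were chosen for their rise, so these values do not test it. G3BP2 gave 0.65 on log2 of FPKM plus 0.1, 0.50 with the length trend removed and 0.50 with si-NC 4 as the lone control library. In the fit of all 6 libraries 1 gene of the whole table was called. That count was 1935 without the low-count filter, 388 by DESeq2, 3 by limma on log2 of FPKM plus 1 and 3 on FPKM plus 0.1, 2 with the replicate block, 5 with the length trend removed, and 499 with the lone control library. That last fit takes its spread from the si-NORAD libraries and assumes the same for the lone control. When 1 library was left out it ran from 0 to 6251, the latter without si-NC 4. Of the 7 members tested, 1 was called without the low-count filter (ATXN2), where 6.56% of all genes were called. When 1 library was left out 0 to 3 were called. The 3 were ATXN2, CAPRIN1 and SERBP1 without si-NC 4, where 39.3% of all genes were called. Of the network genes, 17 were called without the filter and 0 to 73 when 1 library was left out, the 73 without si-NC 4. The shares of all genes called in these 2 settings are the same 6.56% and 39.3%. Replicate numbers did not pair the libraries (correlation of same-numbered libraries' deviations -0.020, -0.00477 and -0.075), and the block called 0 of the 7 members.

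Some differences changed sign, and the cause was not tested. With si-NC 4 as the lone control library the log2 fold changes were -0.0655 for CAPRIN1, -0.0346 for USP10, -0.0840 for ATXN2, 0.0589 for HNRNPA1, 0.0865 for HNRNPA2B1, 0.0250 for PPP1CC, -0.0217 for EIF4G2, -0.0233 for EIF4G1, 0.0356 for VCP, -0.0679 for CNOT1, 0.0321 for PRMT1 and -0.0963 for CDC14B. With the length trend removed they were -0.00773 for CAPRIN1, -0.0411 for TIA1, -0.0950 for FXR1, -0.0944 for EIF4G2, -0.0663 for EIF4G1 and -0.0454 for EIF4B. In limma on log2 FPKM (plus 1, plus 0.1, and plus 1 with no filter) G3BP1 gave 0.0287, 0.0296 and 0.0287 and HNRNPA2B1 0.0409, 0.0411 and 0.0409. Leaving out 1 library gave -0.0306 to 0.0551 for USP10, -0.000385 to 0.0317 for PABPC1, -0.0748 to 0.0216 for HNRNPA2B1, -0.00347 to 0.0319 for EIF2S3, -0.0211 to 0.0598 for EIF4G2, -0.00132 to 0.0890 for EIF4G1, -0.00955 to 0.0491 for EIF4B and -0.0170 to 0.0278 for EEF2. HABP4, with 491 to 1212 counts per library, is the least deeply counted member.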
